A study of Mus musculus with 39 samples.

Results

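The enzymes that break down the branched-chain amino acids leucine, isoleucine and valine, together with those that use ketone bodies, were followed in mouse brown fat. The set is a list of 29 genes picked by name and not by any measured value, all of which were found in the expression table. Of these, 27 had a mean of at least 10 normalised counts over the 16 RNA libraries and were kept among 13176 kept genes (of 24116 in the table). The 2 that fell short, Bdh1 and Bdh2, entered only the alternative without that filter and are described here by their values.

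The RNA came from the interscapular depot of brown fat, a heat-producing tissue, in male mice on the C57BL/6J background. All mice carried floxed Bcl6, a gene for a transcriptional repressor, and ate standard chow. Controls had no Cre, and the other mice carried Cre driven by the promoter of Ucp1, the uncoupling protein gene, which directs it to brown adipocytes, while RNA was taken from the whole tissue. Mice of each genotype were housed at 22 °C or at 30 °C, which gave 4 groups of 4 libraries: control at 22 °C, Cre-labelled at 22 °C, control at 30 °C and Cre-labelled at 30 °C. The labels state neither ages nor whether each library is a different animal, so p-values measure the spread between these samples, which may be technical. A list of 3022 BCL6 binding peaks from Cre-negative brown fat at 30 °C was also used. The labels name a single BCL6 library of that kind, so its peaks have no replicate.

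Breakdown of branched-chain amino acids begins with a reversible transamination, mostly by the mitochondrial enzyme Bcat2, and is committed by the branched-chain ketoacid dehydrogenase, which the kinase Bckdk switches off and the phosphatase Ppm1k switches on. Leucine carbon ends as acetyl-CoA and acetoacetate, valine carbon as propionyl-CoA, and isoleucine carbon as both. Propionyl-CoA then enters the citric acid cycle as succinyl-CoA through a cobalamin-dependent step. Brown fat takes up branched-chain amino acids and oxidises them during cold-induced heat production, and Oxct1 lets a tissue burn ketone bodies.

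Library totals spanned 10122739 to 13516936 normalised counts at 22 °C and 8867615 to 9975035 at 30 °C. The depth in reads is unknown. Bcl6, the targeted gene, read 764 to 1838 in controls and 2671 to 3927 with the Cre label at 22 °C, and 1020.1 to 2340.4 and 3269 to 5159 at 30 °C, so its RNA was higher with the Cre label without overlap. The log2 difference was 1.32 at 30 °C (SE 0.27, limma adjusted p = 0.00438) and 1.70 at 22 °C (SE 0.27, adjusted p = 8.25e-04), and the exact permutation p, two-sided, was 0.0286 for either, the smallest that 4 against 4 allow. Sums over the whole gene do not show whether the floxed part was lost, so genotype is given throughout as the Cre label. Brown adipocyte markers were present, with none of 14 at 0 throughout, and their summed level was 143209 to 213777 normalised counts in controls and 92095 to 152095 with the Cre label at 22 °C, and 66149 to 72869 and 35161 to 42448 at 30 °C. Macrophage markers went the other way, with sums over 16 genes of 1485 to 2539, 2569 to 3639, 4095 to 5158 and 7206 to 18593 in the same order. General adipocyte markers summed over 6 genes to 151570 to 231704, 153866 to 213797, 103419 to 117844 and 105105 to 138333 in that order. By limma 0 of the 6 passed by Cre label at either temperature (2 lower at 30 °C at an unadjusted p under 0.05). The part of these lists in the results below was not tested, and in whole tissue fewer cells of a type and less RNA per cell cannot be told apart. Skeletal muscle markers varied widely within groups (1134 to 30569 over 18 genes with the Cre label at 30 °C). With their score as a covariate 16 of 27 members were lower with the Cre label at each temperature. Of 13176 genes tested, 820 at 30 °C and 585 at 22 °C were then lower. The part of muscle in the results was not tested beyond this.

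The BCL6 peak list was searched near the members. Only Oxct1 had a peak within 10 kb of its transcription start, 1 of 27 members (3.70%) against 1021 of 13176 genes tested (7.75%). That peak, at chr15:4026397-4026577 (mm10), was called promoter-TSS in the authors' annotation, with its centre 59 bases after the start. Its authors' score was 5.54, a value shared by 107 peaks from rank 1094 of 3022, where the median is 5.18. Bckdhb had a peak in intron 3 of 10 at chr9:83962537-83962717, with a score of 6.97; the authors' file puts it 13846 bases after the nearest start it lists, which is not the start of the annotated gene at 83925111. The 250 bases before the annotated Oxct1 gene are shown because they hold the edge of its peak, and the 31 bases inside the peak are in capitals. The 194 bases before the annotated Pccb gene, which encodes a subunit of propionyl-CoA carboxylase, are shown because Pccb alone among members' promoters holds the letters TTCCTAGAA, known as a BCL6-type element, here in capitals and beginning 141 bases before the start used for its promoter. Both come from RefSeq (GRCm38.p6, the build named mm10), 5′ to 3′ on the strand of the gene, at chr15:4026178-4026427 (plus strand) and chr9:101034941-101035134 (minus strand).
Oxct1: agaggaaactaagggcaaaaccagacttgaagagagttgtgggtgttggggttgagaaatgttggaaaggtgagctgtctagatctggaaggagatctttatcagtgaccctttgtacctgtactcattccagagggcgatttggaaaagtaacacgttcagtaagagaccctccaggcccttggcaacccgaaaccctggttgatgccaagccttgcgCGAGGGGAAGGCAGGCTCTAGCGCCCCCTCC
Pccb: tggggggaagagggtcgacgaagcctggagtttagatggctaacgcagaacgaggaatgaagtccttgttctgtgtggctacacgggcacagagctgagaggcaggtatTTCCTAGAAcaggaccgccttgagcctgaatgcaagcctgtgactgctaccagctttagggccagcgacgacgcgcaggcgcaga
Promoters of 300 bases, from 250 before to 50 after the start, were on hand for 23 of the 27 members (29 promoters) and 32851 in all. On either strand TTCCTAGAA was in 0.411% of all promoters. The looser TTCNNNGAA, which also takes in TTCCTAGAA, was in 8.30% of all promoters and in those of Ivd and Pccb. AAGGTCA, the core letters of the estrogen-related receptor element, was in 4.72% of all promoters and in none of the members', and the longer TCAAGGTCA in 0.423% of all and likewise in none of the members'. No peak was assigned to Pccb, and a match of letters is a description only.

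The first comparison was between the Cre labels in warm housing. At 30 °C, 18 of the 27 members were lower in Cre-labelled than in control libraries and none was higher by limma (22 lower and 0 higher at an unadjusted p under 0.05), where 6.85% of all genes tested were lower and 5.65% higher. The median log2 difference was -0.48 over the members and 0.01 over all genes tested. Groups did not overlap for 21 members that were lower and for 1 that was higher, Bcat1, where 12.4% and 10.5% of all genes did so. The lower members included every role except transamination. Ppm1k and Oxct1 had the smallest adjusted p, at -0.88 and -0.85. At this temperature 7 of 14 brown adipocyte markers were lower and 13 of 16 macrophage markers higher, and their part in the result was not tested. Calls for 12 of the 18 held in all 28 alternatives, namely Oxct1, Ppm1k, Pccb, Auh, Bckdha, Bckdk, Acadsb, Aldh6a1, Acat1, Pcca, Acad8 and Mmab. The other 6 calls were lost on leaving out single libraries. Hibch and Mut were lost without control libraries 2 or 4 or Cre-labelled library 1 (adjusted p = 0.0537 to 0.0653 for Hibch and 0.0578 to 0.0676 for Mut). Mmachc was lost without control libraries 1, 2 or 4 or Cre-labelled 1 or 3 (adjusted p = 0.0504 to 0.0920), Ivd without those or Cre-labelled 4 (0.0633 to 0.0990) and Hsd17b10 without any 1 of the 8 (0.0507 to 0.0893). Mccc1 was lost in 11 of the 16 omissions, namely without control 2 or 4 or any Cre-labelled library at 30 °C and without control 2 or 4 or Cre-labelled 1, 3 or 4 at 22 °C (0.0549 to 0.167).

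At 22 °C the same comparison found 17 of 27 members lower with the Cre label and none higher by limma (20 and 0 at an unadjusted p under 0.05), where 4.69% of all genes tested were lower and 5.51% higher. The median was -0.50, against -0.00 over all genes tested. Groups did not overlap for 14 members that were lower and 0 that were higher, where 6.06% and 6.38% of all genes did so. Among markers, 4 of 14 for brown adipocytes were lower and 8 of 16 for macrophages higher, 1 lower; their part was not tested. Of the 18 and 17 lower members, 13 were the same genes. The 2 comparisons share no library in their means. Both use the spread of each gene over all 16 libraries, so their calls are not independent. The 5 called lower only at 30 °C were Ivd, Auh, Acadsb, Hsd17b10 and Mmachc, and the 4 called only at 22 °C were Bckdhb, Dbt, Mccc2 and Mcee. The difference between temperatures itself did not pass for any of them, as given further on. With groups compared alone, Bckdhb and Dbt passed at 30 °C and not at 22 °C. Fitted on these 8 libraries alone, 7 members were lower, and the median stayed at -0.50. The share of all genes tested that were lower in that fit was also below 4.69%. When libraries were scaled to equal totals 10 members were lower, where 304 of 13220 genes tested were. Calls for Ppm1k, Oxct1, Mccc1, Mccc2, Acat1 and Pccb held in all 28 alternatives. Single libraries ended 5 calls. Hibch was lost when either library 1 or 3 of the Cre-labelled group at 22 °C was left out (adjusted p = 0.0584 to 0.0674), and Mcee without those or control library 2 of that temperature (0.0578 to 0.0734). At 22 °C, Aldh6a1 was lost without control 3 or 4 or Cre-labelled 1 or 3 (0.0517 to 0.0611) and Pcca without control 2 or 3 or Cre-labelled 1, 3 or 4 (0.0591 to 0.123). Acad8 was lost in 11 omissions, without control 1, 3 or 4 or Cre-labelled 1, 3 or 4 at 22 °C and without control 1, 2 or 4 or Cre-labelled 3 or 4 at 30 °C (0.0505 to 0.135).

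**Figure D1:**
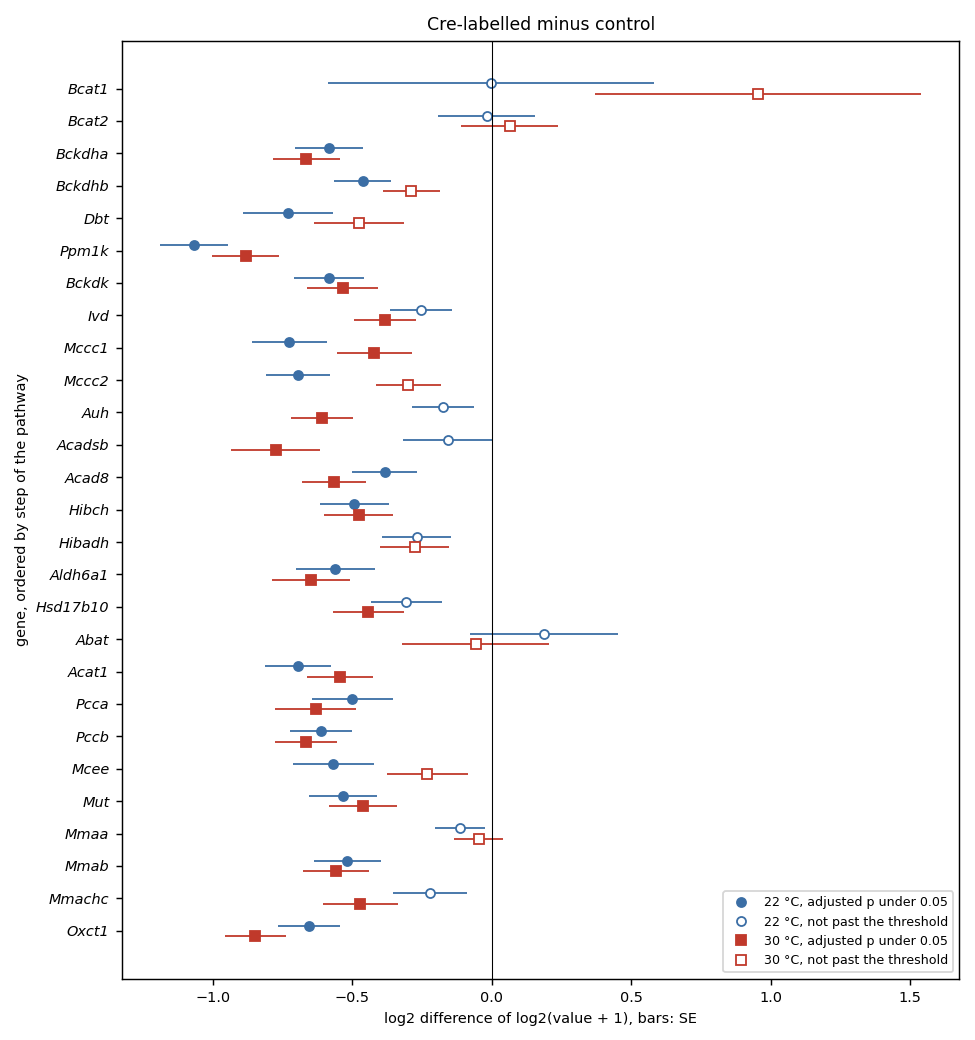
Log2 difference between Cre-labelled and control libraries (x axis, on log2(value + 1), bars are the limma SE) for the 27 members kept (y axis, by step of the pathway), at 22 °C (circles) and 30 °C (squares), filled where the adjusted p is under 0.05. Most members lie left of 0 at both temperatures, Ppm1k farthest at -1.07 and -0.88, while Bcat2 and Mmaa lie near 0. Bcat1 lies farthest right at 30 °C (0.96) and did not pass.

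Warm housing was then compared with 22 °C within each genotype. In controls 18 of 27 members were lower at 30 °C and 1, Abat, was higher, where 22.7% and 22.9% of all genes tested were. In Cre-labelled libraries 17 were lower and 2, Bcat1 and Ppm1k, were higher, where 17.7% and 15% of all genes were. Median log2 differences were -0.53 and -0.51 over the members, and 0.04 and 0.02 over all genes tested. All 17 lower in the Cre-labelled libraries were among the 18 lower in the controls, and the other gene was Dbt. These 2 comparisons share no library in their means, but they too share the spread of each gene over all 16 libraries. Groups did not overlap for 16 lower and 1 higher member in controls (21.3% and 19.9% of all genes) and for 18 and 3 in Cre-labelled libraries (18.3% and 16.2%). Brown adipocyte markers were lower for 10 of 14 in controls and 11 of 14 with the Cre label, macrophage markers higher for 14 and 15 of 16, and muscle markers higher for 9 and 0 of 18, and their part was not tested. The temperature result depends on the scaling. After quantile normalization 9 members were lower and 4 higher in controls (median -0.17), with Hibadh at 0.00, and 14 and 2 in Cre-labelled libraries. Of 13176 genes tested, 2791 were then lower and 2382 higher in controls, and 2351 and 1968 in Cre-labelled libraries. Scaling libraries to equal totals moved the median of all genes to 0.43 in controls and 0.31 in Cre-labelled libraries. With this scaling 9 and 13 members were lower, where 1158 and 1123 of 13220 genes tested were, and Ivd was at 0.02 in controls. Bckdha, Bckdhb, Bckdk, Mccc1, Mccc2, Mcee, Mut and Mmab stayed lower in controls in all 28 alternatives.

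**Figure D2:**
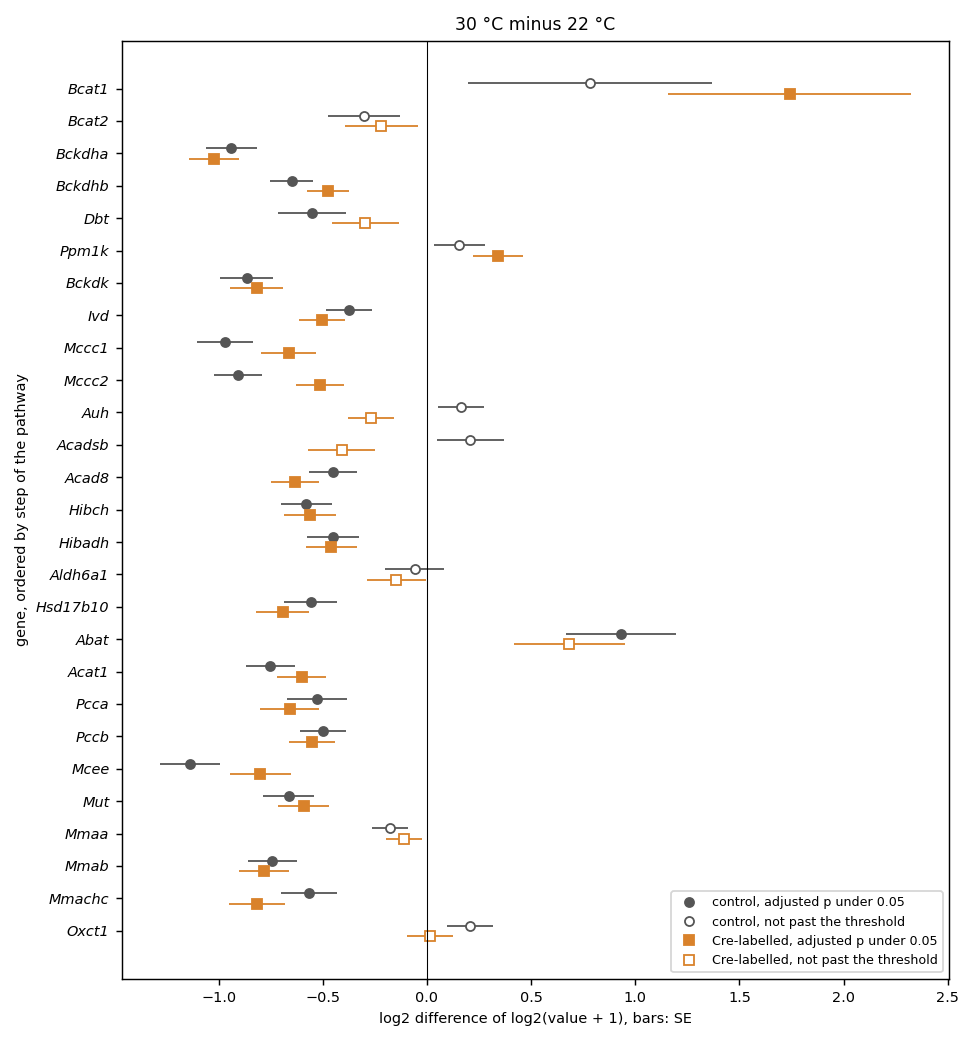
Log2 difference between 30 °C and 22 °C (x axis, on log2(value + 1), bars are the limma SE) for the 27 members kept (y axis, by step of the pathway), in control (circles) and Cre-labelled libraries (squares), filled where the adjusted p is under 0.05. Mcee (-1.14) and Mccc1 (-0.97) lie farthest left in controls. Abat (0.93) and Bcat1 (0.78) lie farthest right in controls, and Oxct1, Auh, Acadsb and Ppm1k also lie right of 0 there. Of those right of 0 in controls only Abat passed.

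The test of whether the genotype difference changed with temperature called none of the 27 members by limma (1 higher and 2 lower at an unadjusted p under 0.05), where 0.175% of all genes tested were higher and 0.266% lower. As the difference at 30 °C minus that at 22 °C, the 3 with a small unadjusted p were Auh (-0.43, adjusted p = 0.303), Acadsb (-0.62, adjusted p = 0.323) and Mccc2 (0.40, adjusted p = 0.400). Across the design the members' summed level was 96785 to 102326 normalised counts in controls and 63419.7 to 78788 with the Cre label at 22 °C, and 65264 to 78409 and 46684 to 54457 at 30 °C. With the Cre label at 30 °C the mean of Bckdha stood at 33.3% of that in controls at 22 °C, Bckdk at 37.6%, Mcee at 38.0%, Mccc1 at 38.0% and Mmab at 40.3%.

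Neither transaminase passed by Cre label in the fit on all 16 libraries. Bcat2, the mitochondrial enzyme of the first step, read 2272, 3612, 2069 and 2541 normalised counts in controls and 2160.3, 2625, 2641 and 2738 with the Cre label at 22 °C (replicates 1 to 4). At 30 °C it read 2340.4, 2506, 1784 and 1788 in controls and 1689.5, 2331, 2614 and 2173 with the Cre label. The groups overlapped in all 4 comparisons, and the genotype differences were 0.06 at 30 °C (SE 0.17, limma adjusted p = 0.863) and -0.02 at 22 °C (SE 0.17, adjusted p = 0.962). Under other scalings and without single libraries the sign of these small differences changed. Bcat1, the cytosolic form, was near the lower limit. Its values were 25.0, 0.75, 15.9 and 8.02 in controls and 6.27, 5.56, 11.3 and 10.8 with the Cre label at 22 °C. The values at 30 °C were 10.6, 19.0, 14.8 and 15.6 in controls and 24.7, 29.6, 35.5 and 29.0 with the Cre label. By Cre label at 30 °C Bcat1 was higher without overlap, short of the threshold (0.96, SE 0.58, limma adjusted p = 0.331). At 22 °C it stood at -0.0029 (adjusted p = 0.998). The 4 Cre-labelled libraries at 30 °C were above all 4 Cre-labelled ones at 22 °C (log2 difference 1.74, SE 0.58, limma adjusted p = 0.0303). That call was lost without Cre-labelled library 1 or 2 at 22 °C or any 1 Cre-labelled library at 30 °C (adjusted p = 0.0506 to 0.0793), and after quantile normalization (adjusted p = 0.0516).

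Of the 3 listed subunits specific to the ketoacid dehydrogenase, Bckdha was lower in all 4 comparisons, Bckdhb in all but that by Cre label at 30 °C, and Dbt in those by Cre label at 22 °C and by warmth in controls. Bckdha, the alpha subunit of its decarboxylase (chr7:25629852-25658782), read 11053, 11262, 11282 and 10029 in controls and 7563, 7503, 6534 and 7546 with the Cre label at 22 °C. At 30 °C its values were 5434, 5784, 5669.6 and 5841 in controls and 2902, 4357, 4115 and 3166 in Cre-labelled libraries. The 4 groups formed 4 separate ranges, highest in controls at 22 °C and lowest in Cre-labelled libraries at 30 °C. The log2 differences were -0.66 and -0.58 by Cre label at 30 and 22 °C (SE 0.12 each, limma adjusted p = 0.00170 and 0.00555), and -0.94 and -1.02 by warmth in control and Cre-labelled libraries (adjusted p = 2.16e-05 and 2.24e-05). After quantile normalization the difference at 22 °C was -0.30 and did not pass (adjusted p = 0.136). Bckdhb, the beta subunit, read 2539, 2461, 1889 and 1966 in controls and 1434, 1723, 1633 and 1590.3 with the Cre label at 22 °C. The values at 30 °C were 1386, 1439.7, 1407 and 1362 in controls and 1099, 1224, 1168 and 1095 with the Cre label. Its spread at 30 °C was narrow and those groups did not overlap, yet the difference of -0.29 missed the threshold (adjusted p = 0.0767). It passed with groups compared alone (limma adjusted p = 0.0175) and without the 2 sparsest libraries (0.0242). The Bckdhb difference at 22 °C was -0.46 (adjusted p = 0.00831), a call lost with groups compared alone (0.0824) and with equal totals (0.0871). The differences with warmth were -0.65 in controls (adjusted p = 1.20e-04) and -0.47 in Cre-labelled libraries (adjusted p = 0.00213). Dbt, the transacylase core, read 1333, 2529, 2140.2 and 1970.3 in controls at 22 °C and 1028, 1058, 1209 and 1421 with the Cre label. At 30 °C it read 1236, 1431, 1169 and 1489 in controls and 833, 1007, 959 and 1023 in Cre-labelled libraries. The difference passed at 22 °C, where control library 1 lay inside the Cre-labelled range (-0.73, adjusted p = 0.00844), and not at 30 °C, where the groups did not overlap (-0.48, adjusted p = 0.0647). With groups compared alone this turned round, with limma adjusted p = 0.0638 at 22 °C and 0.0119 at 30 °C. Dbt also passed at 30 °C after quantile normalization (0.0459), with the replicate block (0.0360) and without the 2 sparsest libraries (0.0102). At 22 °C it was also lost with equal totals (0.0619).

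**Figure D3:**
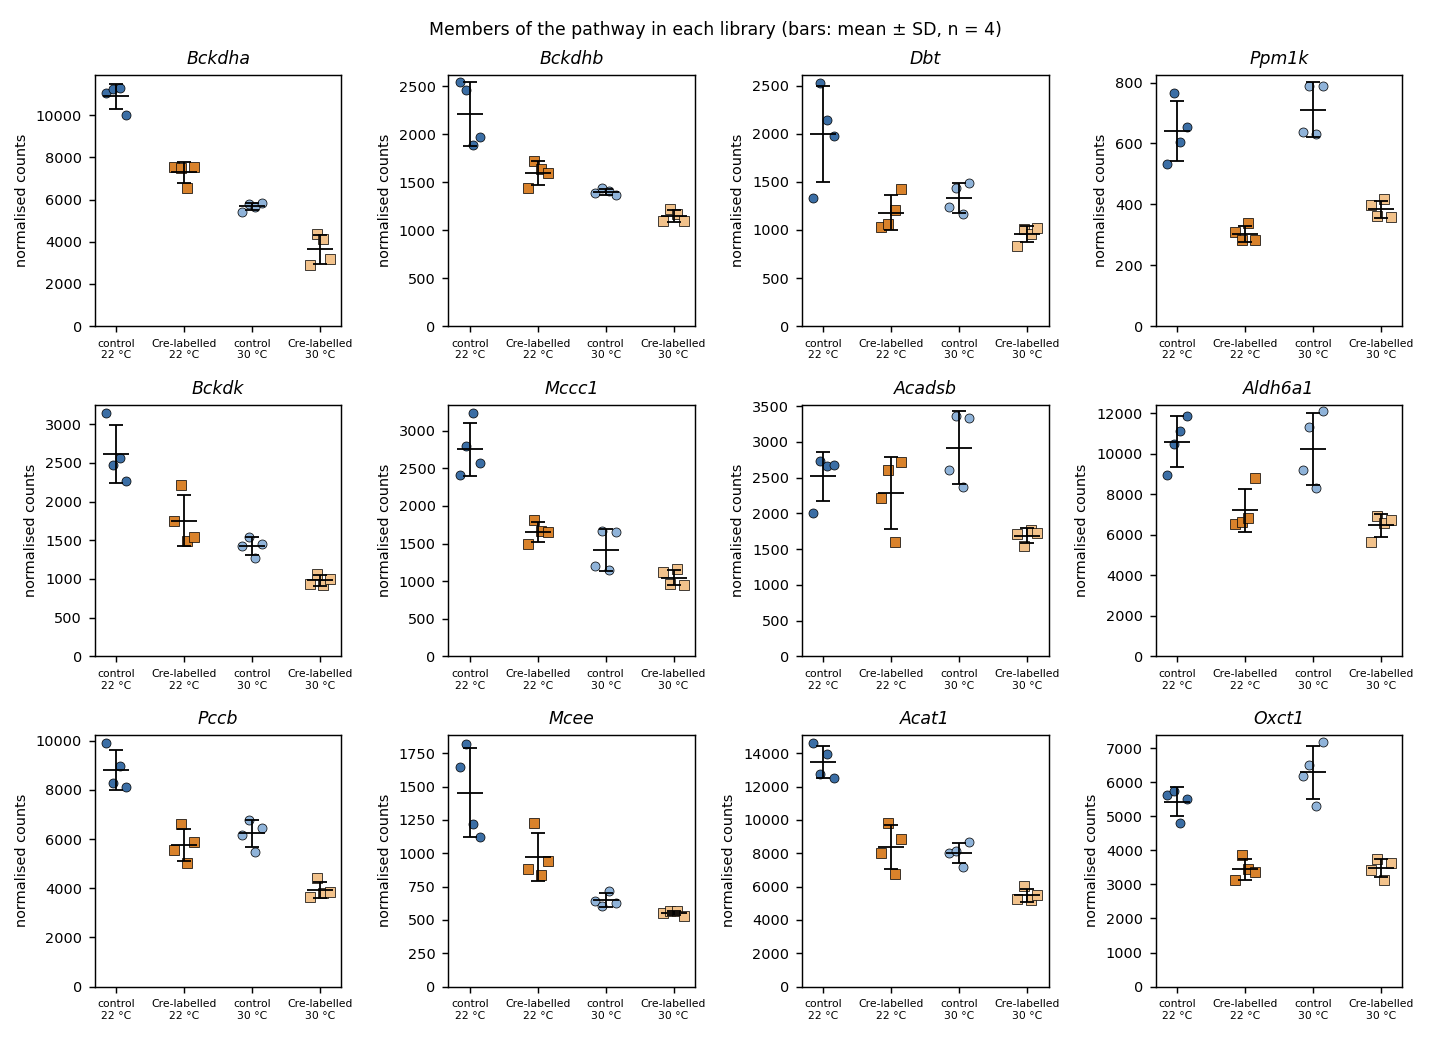
Normalised counts (y axis, from 0) of 12 members in each of the 16 libraries (points), by group (x axis), with the mean and SD of 4 libraries as bars. Bckdha and Acat1 step down with warmth as well as with the Cre label, whereas Ppm1k and Oxct1 separate by Cre label at both temperatures.

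Both enzymes that set the activity of the dehydrogenase were lower with the Cre label at each temperature. Ppm1k, the activating phosphatase (chr6:57506502-57535552), read 531, 767, 606 and 655 in controls and 308, 283, 337 and 283 with the Cre label at 22 °C. At 30 °C the values were 637, 789, 630.0 and 788 in controls and 398, 361, 417 and 359 with the Cre label. Every Cre-labelled library lay below every control library of either temperature. The difference by Cre label was -1.07 at 22 °C (SE 0.12, limma adjusted p = 2.87e-05) and -0.88 at 30 °C (adjusted p = 1.55e-04). Between temperatures it stood at 0.16 in controls (adjusted p = 0.305) and rose by 0.34 in Cre-labelled libraries (adjusted p = 0.0393), a call lost without Cre-labelled library 1, 2 or 4 at 22 °C or 1 or 3 at 30 °C (adjusted p = 0.0630 to 0.102). Bckdk, the inactivating kinase, read 3141, 2477, 2562 and 2261 in controls and 1752, 2214, 1492 and 1542 with the Cre label at 22 °C. At 30 °C it read 1431, 1544, 1267 and 1458 in controls and 938, 1069, 921 and 1001 with the Cre label. The kinase was lower at 30 °C than at 22 °C in controls (-0.87, adjusted p = 6.62e-05) and in Cre-labelled libraries (-0.82, adjusted p = 1.83e-04), as well as lower with the Cre label (-0.54 at 30 °C and -0.58 at 22 °C, adjusted p = 0.0106 and 0.00748).

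The ratio of Ppm1k to Bckdk within a library does not depend on how libraries are scaled. Its level also reflects transcript length, so only its change between groups is read. It was 0.252 ± 0.0629 in controls and 0.179 ± 0.0403 in Cre-labelled libraries at 22 °C, and 0.499 ± 0.0395 and 0.394 ± 0.0539 at 30 °C (SD, n = 4 each). All 8 libraries at 30 °C, from 0.339 to 0.541, were above all 8 at 22 °C, from 0.128 to 0.310. The log2 ratio was higher at 30 °C by 1.02 in controls and 1.16 in Cre-labelled libraries, each with an exact permutation p (two-sided) of 0.0286, the smallest for 4 against 4, and 0.0571 after Benjamini-Hochberg adjustment over 4 tests, which does not pass 0.05. By Cre label it differed by -0.35 at 30 °C and -0.48 at 22 °C (exact permutation p = 0.0571 and 0.143, adjusted 0.0762 and 0.143), and neither of these passed.

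**Figure D4:**
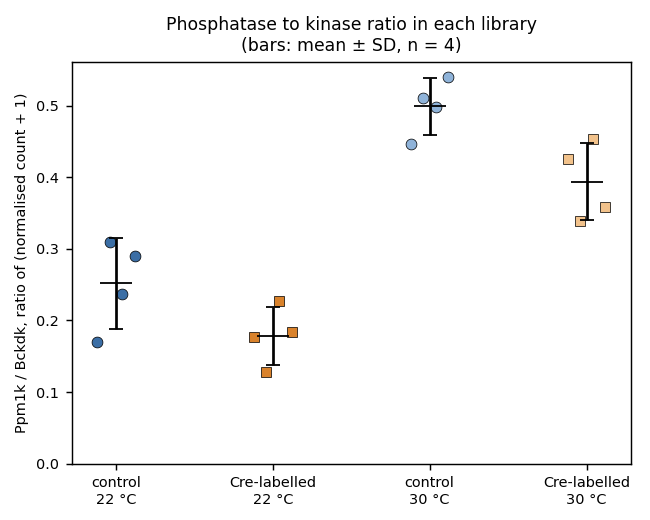
Ratio of Ppm1k to Bckdk (y axis, from 0, of normalised counts + 1) in each of the 16 libraries (points) by group (x axis), with mean and SD of 4 libraries as bars. The 8 libraries at 30 °C lie from 0.339 to 0.541 and the 8 at 22 °C from 0.128 to 0.310.

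In the leucine arm the 2 subunits of methylcrotonyl-CoA carboxylase had the largest temperature differences in controls. Mccc1, its biotin-carrying subunit, read 2410.4, 2796, 3232 and 2575 in controls and 1493, 1816, 1672 and 1652 with the Cre label at 22 °C. The values at 30 °C were 1206, 1662, 1148 and 1658 in controls and 1117, 967, 1156 and 950.0 with the Cre label. Controls at 22 °C stood above every other library. Mccc1 was lower, at -0.97 in warm controls (limma adjusted p = 3.87e-05), and at -0.73 with the Cre label at 22 °C (adjusted p = 0.00241). Mccc2, the carboxyltransferase subunit, read 1922, 2625, 1950.4 and 1938 in controls and 1186, 1178, 1474 and 1349 with the Cre label at 22 °C. The values at 30 °C were 1001, 1113, 1139 and 1209 in controls and 1025, 893, 856 and 855 with the Cre label. It too was highest in controls at 22 °C, without overlap with the other groups. The difference in warm controls was -0.91 (adjusted p = 1.99e-05), that by Cre label -0.69 at 22 °C (adjusted p = 0.00111) and -0.30 at 30 °C, where the groups overlapped (adjusted p = 0.106). Auh, the hydratase that follows, had another pattern. It read 1657, 1359.9, 1511 and 1447 in controls and 1250.1, 1572, 1099.8 and 1403 with the Cre label at 22 °C. The values at 30 °C were 1666, 1614, 1626 and 1778 in controls and 1023, 1249, 1038 and 1083 with the Cre label. The 4 Cre-labelled libraries at 30 °C were below all 12 others except Cre-labelled library 3 at 22 °C, which lay within their range. Auh fell, at -0.61 with the Cre label at 30 °C (adjusted p = 0.00156) and stood at -0.17 at 22 °C (adjusted p = 0.341). Ivd, the isovaleryl-CoA dehydrogenase, was lower with the Cre label at 30 °C (2138 ± 224 against 2783 ± 228, SD, n = 4 each, adjusted p = 0.0309) and stood at -0.25 at 22 °C (adjusted p = 0.159).

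Enzymes of the valine and isoleucine arms were lower with the Cre label in 5 of 7 cases at 30 °C and 3 of 7 at 22 °C, where 6.85% and 4.69% of all genes tested were lower. Acadsb, the short/branched-chain acyl-CoA dehydrogenase of the isoleucine arm, had means of 2921 ± 505 in control and 1689 ± 104 in Cre-labelled libraries at 30 °C (SD, n = 4 each, limma adjusted p = 0.00430). At 22 °C they were 2521 ± 344 and 2288 ± 504, with overlap (adjusted p = 0.582). Acad8, which acts on isobutyryl-CoA from valine, was lower, at -0.57 and -0.38 at 30 and 22 °C (adjusted p = 0.00399 and 0.0441), and Hibch, the hydroxyisobutyryl-CoA hydrolase of that arm, at -0.48 and -0.49 (adjusted p = 0.0178 and 0.0186). Aldh6a1, the methylmalonate semialdehyde dehydrogenase, had a Cre-label difference of -0.65 at 30 °C and -0.56 at 22 °C (adjusted p = 0.00607 and 0.0185). Between temperatures it stood at -0.06 in controls and -0.15 in Cre-labelled libraries, neither past the threshold (adjusted p = 0.748 and 0.457). Hibadh, the dehydrogenase before it, was called by temperature alone, at -0.45 in controls and -0.46 in Cre-labelled libraries (adjusted p = 0.00742 and 0.00903), and after quantile normalization these were 0.00 and -0.12. Hsd17b10, a hydroxyacyl-CoA dehydrogenase of the isoleucine arm, stood at -0.44 by Cre label at 30 °C (adjusted p = 0.0303). Abat, the mitochondrial transaminase of GABA and beta-amino acids, was a low gene that rose in warm controls. Its values were 25.0, 14.4, 21.6 and 24.2 at 22 °C and 32.1, 33.5, 62.9 and 40.2 at 30 °C in controls (0.93, SE 0.26, adjusted p = 0.00922). With the Cre label they were 24.4, 18.9, 24.7 and 28.6 at 22 °C and 39.4, 32.4, 56.8 and 31.8 at 30 °C (0.68, adjusted p = 0.0565). The call in controls was lost with the muscle covariate (0.80, adjusted p = 0.0546) and after quantile normalization (0.38, adjusted p = 0.253).

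Acat1 and the genes of the propionyl-CoA steps were lower in all 4 comparisons, except Mcee by Cre label at 30 °C. Acat1, the mitochondrial acetoacetyl-CoA thiolase, ends isoleucine breakdown and also the use of ketone bodies. It read 14629.9, 12777, 13932 and 12550.2 in controls and 8044, 9815, 6771 and 8888 with the Cre label at 22 °C. The values at 30 °C were 8027, 8114, 7187 and 8666 in controls and 5237, 6029, 5177 and 5485 with the Cre label. Controls at 22 °C were highest and Cre-labelled libraries at 30 °C lowest, with no library of either inside the range of another group. Its Cre-label difference was -0.70 at 22 °C and -0.54 at 30 °C (limma adjusted p = 0.00124 and 0.00590). The difference in warm controls, -0.75 (adjusted p = 1.15e-04), was -0.17 after quantile normalization (adjusted p = 0.161). Pccb, whose promoter letters are given above, read 9916, 8258, 8950.1 and 8121 in controls and 5557, 6598, 5044 and 5876 with the Cre label at 22 °C. The values at 30 °C were 6178, 6785, 5486 and 6468 in controls and 3623, 4404, 3815 and 3848 with the Cre label. The Cre-labelled libraries lay below the controls at each temperature (-0.67 at 30 °C and -0.61 at 22 °C, adjusted p = 8.29e-04 and 0.00217). Its partner subunit Pcca was lower, at -0.63 and -0.50 (adjusted p = 0.00815 and 0.0359). Mcee, the methylmalonyl-CoA epimerase, had the largest temperature difference of the members in controls among those that fell. Its values were 1648, 1823, 1223 and 1124 in controls and 879.7, 1231, 835 and 944 with the Cre label at 22 °C. The values at 30 °C were 642, 604, 720.0 and 630.0 in controls and 549.7, 567, 564 and 527 with the Cre label. All 8 libraries at 30 °C were below all 8 at 22 °C (-1.14 in controls, SE 0.15, adjusted p = 2.06e-05, and -0.80 in Cre-labelled libraries, adjusted p = 6.09e-04). By Cre label at 30 °C it stood at -0.23 (adjusted p = 0.352). Mut, the methylmalonyl-CoA mutase, fell in all 4 comparisons, at -0.46, -0.53, -0.66 and -0.59 by Cre label at 30 and 22 °C and by warmth in control and Cre-labelled libraries.

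Genes that prepare the cobalamin cofactor of the mutase were divided. Mmab, the adenosyltransferase that makes the cofactor, read 534, 572, 715 and 589 in controls and 473, 463, 364 and 383 with the Cre label at 22 °C. The values at 30 °C were 370.0, 331, 324 and 412 in controls and 253, 250.2, 238 and 229.6 with the Cre label. Controls at 22 °C were highest and Cre-labelled libraries at 30 °C lowest, without overlap with another group, while the groups between them overlapped. All 4 differences passed (-0.56 and -0.52 by Cre label at 30 and 22 °C, limma adjusted p = 0.00528 and 0.0107, and -0.78 by warmth in Cre-labelled libraries, adjusted p = 1.50e-04). Mmachc, which processes incoming cobalamin, read 622, 644, 707 and 571 in controls and 507, 725, 435 and 548 with the Cre label at 22 °C. The values at 30 °C were 409, 468, 414 and 425 in controls and 276, 341, 288 and 336 with the Cre label. It was lower at 30 °C without overlap in both genotypes (-0.57 in controls and -0.82 in Cre-labelled libraries, adjusted p = 0.00277 and 2.75e-04). Mmaa, the GTPase that guards the mutase, passed in no comparison. Its means ran from 1008 ± 33.5 in controls at 22 °C to 864 ± 61.9 in Cre-labelled libraries at 30 °C (SD, n = 4 each), and its Cre-label difference was -0.05 at 30 °C (SE 0.09, adjusted p = 0.799).

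Of the 3 ketone genes listed, only Oxct1 was kept. Oxct1, the succinyl-CoA transferase that activates acetoacetate (chr15:4026428-4155344), read 5643, 5749, 4808 and 5522 in controls and 3119.6, 3856, 3455 and 3367 with the Cre label at 22 °C. At 30 °C it read 6175, 6498, 5296 and 7189.6 in controls and 3429, 3741, 3125 and 3632 with the Cre label. All 8 Cre-labelled libraries, whatever the temperature, were below all 8 controls. Oxct1 was lower, at -0.85 at 30 °C (SE 0.11, limma adjusted p = 8.80e-05) and at -0.66 at 22 °C (adjusted p = 0.00112). Over the 28 alternatives these ran from -0.93 to -0.78 and from -0.71 to -0.48, and each passed. Between temperatures it stood at 0.21 in controls (adjusted p = 0.134) and 0.01 in Cre-labelled libraries (adjusted p = 0.936). In controls it passed as higher at 30 °C after quantile normalization (0.60, adjusted p = 3.63e-04) and after scaling to equal totals (0.60, adjusted p = 3.66e-04), and in Cre-labelled libraries likewise (0.29 and 0.30, adjusted p = 0.0471 and 0.0371). Bdh1, the mitochondrial beta-hydroxybutyrate dehydrogenase, was barely present. Its 16 values, in the order control and Cre-labelled at 22 °C and then at 30 °C, were 0, 1.24, 3.18 and 2.29, then 4.60, 0, 3.75 and 2.61, then 0, 0.87, 3.86 and 3.12, then 4.17, 4.22, 8.22 and 6.73. Bdh2, its cytosolic namesake, was at 0 in all 4 controls at 22 °C and reached at most 6.91 elsewhere. Both were below the mean of 10 and are not among the 27.

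Genes that share these steps with other pathways were taken from a separate list. Of 17 tested genes of shared steps, 9 were lower with the Cre label at 30 °C and 6 at 22 °C, and 14 were lower at 30 °C in each genotype (medians -0.50, -0.46, -0.68 and -0.72). None was higher with the Cre label by limma (also 0 at an unadjusted p under 0.05). Of all genes tested, 6.85% and 4.69% were lower by Cre label at 30 and 22 °C. With warmth 22.7% were lower in controls and 17.7% in Cre-labelled libraries. Acadm, the medium-chain acyl-CoA dehydrogenase, was lower, at -0.91 and -0.77 by Cre label at 30 and 22 °C (limma adjusted p = 8.67e-04 and 0.00395), as was Hadhb, the thiolase subunit of the trifunctional protein, at -1.02 and -0.81 (adjusted p = 0.00137 and 0.00850). Suclg1, a subunit of succinyl-CoA synthetase, was lower, at -0.74 and -0.60 with the Cre label at 30 and 22 °C (limma adjusted p = 0.00186 and 0.0104), and Acads, the short-chain acyl-CoA dehydrogenase, at -0.69 at 30 °C (adjusted p = 0.00102). Dld, the dihydrolipoyl dehydrogenase that the complex shares with others, stood at -0.40 and -0.41 by Cre label (adjusted p = 0.127 and 0.119) and was lower at 30 °C in controls (-0.90, adjusted p = 4.00e-04). Of 8 tested genes of ketone synthesis and other acetoacetate or acetate use, 3 were lower with the Cre label at each temperature (6.85% and 4.69% of all genes tested at 30 and 22 °C). The cytosolic thiolase Acat2 was among them (-0.83 at 30 °C and -1.08 at 22 °C, adjusted p = 2.72e-05 and 1.87e-06), as was its close paralog Acat3 (-2.57 and -3.08, adjusted p = 7.34e-04 and 2.01e-04), whose reads the authors' counting could divide between them.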

How the data were processed

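RNA was sequenced from brown fat as 16 libraries, 4 per group, with stranded polyA libraries read as single reads, per the labels' protocols. The authors' deposited signal values are counts estimated with kallisto (build mm10) and then normalised across libraries by DESeq2, per the submitters' processing notes; no source used here states versions, annotation or filters. Values are not whole numbers, so reads and depth could not be recovered, and a change in total RNA would not be seen. All 16 columns matched a sample by name, and 0 columns of per-sample values were left unused. No 2 libraries were identical (0 pairs). The deposited peak score and the distance in bases to the nearest start are HOMER's, per the file headers, and scores were only ranked; no source used here states the calling threshold, and the H3K27ac, ERRa, input and Cre-labelled BCL6 libraries were not analysed here.

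Tests ran on log2(value + 1) for genes with a mean of at least 10, in 1 linear model with a mean per group (limma 3.58.1, R 4.3.3, empirical Bayes with a trend), adjusted by Benjamini-Hochberg over 13176 genes at 0.05. Fold changes on this scale understate the change of low genes. The fit was tested on simulated data. Single values had exact permutation tests (scipy 1.17.1). Every kept member is named, and library values are given for 8 fixed genes (Bcat2, Bckdha, Bckdhb, Dbt, Ppm1k, Bckdk, Bdh1 and Oxct1), for the 4 with the smallest adjusted p per comparison and for those called against the members' direction. Other pathway genes named are among the 4 with the smallest adjusted p of their list in a comparison, except Dld and Slc25a44, which were chosen for their role after values were seen. Members and lists were chosen with earlier results of these data known. Gene positions are from RefSeq (GRCm38.p6).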

Additional observations from a re-analysis of the deposited data

Results flagged for a closer look

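Of 112 sets of 4 library values (27 members and Bcl6 in 4 groups), 8 held a library whose gap to its nearest neighbour took up more of the range of the set than Dixon's 95% critical value allows, where chance gives about 1 set in 20. In controls at 22 °C, Mccc2 was high in library 2 (2625 normalised counts, the others 1922 to 1950.4), Acadsb was low in library 1 (2007, the others 2666 to 2737) and Hibadh was high in library 1 (9504, the others 7792 to 7872). Bcl6 was high in control 22 °C library 4 (1838, the others 764 to 916). In Cre-labelled libraries at 22 °C, Bckdha was low in library 3 (6534, the others 7503 to 7563), Aldh6a1 was high in library 4 (8807, the others 6537 to 6825) and Hsd17b10 was low in library 1 (1723, the others 2119 to 2134). In Cre-labelled libraries at 30 °C, Hsd17b10 was low in library 4 (1147, the others 1267 to 1292). No member's genotype difference passed as different between temperatures.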

How the results depend on the processing

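Medians of the members kept their sign in all alternatives for the 4 comparisons between groups. Leaving out 1 library at a time, members lower numbered 12 to 20 (Cre label, 30 °C), 12 to 19 (22 °C), 18 to 18 (warmth, controls) and 17 to 19 (warmth, Cre-labelled), members higher 0 to 0, 0 to 0, 1 to 1 and 0 to 3, and medians ran from -0.54 to -0.44, -0.57 to -0.44, -0.54 to -0.44 and -0.57 to -0.49. Of 13176 genes tested, 559 to 1135, 360 to 1192, 2606 to 3200 and 1832 to 2626 were lower in these omissions, in the same order. With warmth 2476 to 3310 in controls and 1500 to 2315 in Cre-labelled libraries were higher. The interaction median ran from -0.11 to 0.10, with 0 to 0 members called. The Bcl6 differences ran from 1.06 to 1.47 and from 1.57 to 1.99, and the 4 ratio differences from -0.42 to -0.28, -0.66 to -0.33, 0.84 to 1.13 and 1.01 to 1.28 in the order of the comparisons. Quantile normalization gave medians of -0.34 (Cre label, 22 °C), -0.17 and -0.29 (warmth in control and Cre-labelled libraries) and -0.12 (interaction). In warm controls it gave 9 members lower and 4 higher, where 2791 and 2382 of 13176 genes tested were. Scaling to equal totals, chosen after the totals were seen, gave medians of -0.32, -0.13, -0.23 and -0.12 in the same order. By Cre label at 22 °C 10 members were then lower, where 304 of 13220 genes tested were. In warm controls 9 members were lower and 6 higher (1158 and 6600 of all genes tested). In warm Cre-labelled libraries 4 members were higher (4406 of all genes tested). Groups compared alone gave 1 member higher at 30 °C and 7 lower at 22 °C. Of 13176 genes tested, 1123 were then higher at 30 °C, so 1 member of 27 is not above the background. Fewer than 4.69% of all genes tested were then lower at 22 °C, so 7 of 27 is above it. Without the filter 1 member was higher by Cre label at 22 °C and 2 in warm controls, where 673 and 3257 of 18645 genes tested were. With a mean of at least 50, 0 and 1 were higher with warmth in control and Cre-labelled libraries, since Abat and Bcat1 were not tested. Of 10830 genes tested, 2193 and 1518 were then higher. With the muscle covariate 0 were higher in warm controls (2326 of 13176 genes tested). Without the 2 sparsest libraries (control 1 and Cre-labelled 2 at 22 °C) the median at 22 °C was -0.58. Bcat2, past no threshold, changed sign to -0.0094, -0.0081 and -0.024 (Cre label at 30 °C, without control libraries 3 and 4 and Cre-labelled 3, over a range of -0.024 to 0.186), to 0.147, 0.058, 0.114 and 0.157 (22 °C, without control 2 and Cre-labelled 1, range -0.121 to 0.147, by quantile and by equal totals), to 0.016 and 0.094 (warm controls, quantile and equal totals) and to 0.070 (warm Cre-labelled, equal totals). In warm controls Hibadh was 0.00075 by quantile and Ivd 0.019 by equal totals, and Oxct1 in warm Cre-labelled libraries was -0.033, -0.021 and -0.00714 (range -0.033 to 0.069) without Cre-labelled 22 °C library 1 and 30 °C libraries 2 and 4. The cause of these shifts was not tested. Within 50 kb or at any distance 2 members had a BCL6 peak. With the replicate numbers as a block, members lower were 17, 16, 18 and 18 and members higher 0, 0, 1 and 2. Of 13176 genes tested, 804, 526, 2893 and 2216 were then lower and 686, 635, 2854 and 1863 higher. The labels do not say that numbers pair libraries, and same-numbered libraries correlated by -0.48 to 0.17. Raw depth is unknown, which limits the low genes Bcat1, Abat, Bdh1 and Bdh2 most.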

Other observations

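Carriers of branched-chain amino acids, ketone bodies and related compounds were a separate list. Of 12 tested transport genes, 4 were lower with the Cre label at 30 °C and 2 at 22 °C (6.85% and 4.69% of all genes tested). With warmth 3 were higher and 4 lower in each genotype. Of all genes tested, 22.9% and 22.7% were so in controls and 15% and 17.7% with the Cre label, so the counts with warmth are near the background. Slc25a44, the mitochondrial carrier of branched-chain amino acids, stood at 0.13 and 0.02 by Cre label at 30 and 22 °C (limma adjusted p = 0.665 and 0.957) and was lower in warm controls (-0.49, adjusted p = 0.0179). Slc16a1, a monocarboxylate transporter that carries ketone bodies, fell by Cre label at 30 °C (-1.13, adjusted p = 0.00262), and the difference at 22 °C was -0.58 (adjusted p = 0.103). Slc25a20, the mitochondrial carnitine carrier, was lower, at -0.99 and -0.76 by Cre label (adjusted p = 4.58e-05 and 6.58e-04). Slc36a2, an amino acid transporter with a BCL6 peak 372 bases after its start, was lower, at -0.67 at 30 °C (adjusted p = 0.00206). That peak had a score of 4.65, where the median is 5.18, and a link between peak and level was not tested. Other genes of these lists also had a peak near the start, some of them not lower by Cre label at 30 °C.

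Tcn2, the blood carrier of cobalamin, was higher with the Cre label, where Mmab was lower, and fell with warmth, as Mmab did. It read 817, 1003, 885 and 853 in controls and 2103, 2091, 2278 and 2029.6 with the Cre label at 30 °C, and at 22 °C 1375, 1703, 1684 and 1629 in controls and 3439.6, 3653, 3598 and 3748 with the Cre label. The Cre-labelled libraries were above the controls at each temperature without overlap (log2 differences 1.26 and 1.18, limma adjusted p = 2.60e-07 and 7.19e-07), and Tcn2 fell with warmth (-0.84 in controls, adjusted p = 4.54e-06). Among 14 tested cofactor genes it was the 1 that was higher with the Cre label at either temperature. Of all genes tested 5.65% and 5.51% were higher at 30 and 22 °C, so this count is near the background. Klf15, a transcription factor known to regulate branched-chain amino acid breakdown in muscle, was lower, at -1.05 in warm controls (adjusted p = 6.90e-05), and at -0.60 with the Cre label at 22 °C (adjusted p = 0.0216), a call lost when control 2 or 3 or Cre-labelled 1 or 3 of that temperature was left out (adjusted p = 0.0504 to 0.0792).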
